A study of Mus musculus with 18 samples.

Results

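H3K9me3 was compared directly between mouse embryonic stem cells (mESCs) that lacked *Uhrf1* and mESCs that lacked *Dhx9*. The comparison used the peak lists of 4 ChIP-seq libraries, 2 from *Uhrf1* KO cells and 2 from *Dhx9* KO cells, out of 18 samples in the series. All 4 came from the ES-E14TG2a line, grown on gelatin in serum with LIF, fixed with formaldehyde and immunoprecipitated with an Abcam antibody to H3K9me3. Per the methods, *Uhrf1* was disrupted with CRISPR-Cas9 in mESCs that carry a reporter of inducible heterochromatin (tetO sites beside eGFP at the *Vim* locus, silenced by a TetR-KRAB fusion). The study worked with 2 independent clones; the labels do not say which clone gave which library. The *Dhx9* KO is named by the sample titles alone, and the sources used here do not give how those cells were made. The 2 wild-type libraries that have a peak list served as a reference for places that carry H3K9me3 in cells of this line. Because nothing ties the libraries of a knockout to separate cell derivations, p-values measure the spread among these libraries. With 2 libraries against 2, an exact two-sided permutation test of a single value cannot go below 0.33, so no such test is given for single places.

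H3K9me3 is the histone mark of heterochromatin, laid down over transposon-derived repeats, satellite DNA, zinc finger gene clusters and the methylated allele of imprinting control regions. UHRF1 binds hemimethylated DNA and methylated H3K9, ubiquitinates histone H3 and thereby recruits the maintenance methyltransferase DNMT1 to newly replicated DNA. DHX9 is a DExH-box helicase that unwinds double-stranded RNA and RNA-DNA hybrids. At an imprinting control region, 1 parental allele is DNA-methylated from the germline on; the zinc finger protein ZFP57 binds its motif TGCCGC when that is methylated and brings in KAP1 and the H3K9 methyltransferase SETDB1.

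Sequences are shown for places where the lists of the knockouts differed and for 1 place called in all 4, as windows of 300 bases on the plus strand of GRCm38.p6 (the RefSeq reference of the mm10 build of the lists), each the CpG-richest window of its place. Capitals mark TGCCGC or, for the motif on the minus strand, GCGGCA. The first 4 windows lay in imprinted loci that had a peak in both *Dhx9* KO lists and in neither *Uhrf1* KO list: within the overlapping transcripts of *Airn* and *Igf2r* (chr17:12741732-12742031, 31 CpG), upstream of *Meg3* within the transcript *Gm34081* (chr12:109528164-109528463, 30 CpG), in an intron of *Inpp5f* (chr7:128688283-128688582, 30 CpG) and beside *Cdh15* outside any annotated transcript (chr8:122870480-122870779, 23 CpG). The fifth, from *Kcnq1ot1* (chr7:143225650-143225949, 6 CpG), lay in a repeat-rich place called in all 4 lists.
Airn: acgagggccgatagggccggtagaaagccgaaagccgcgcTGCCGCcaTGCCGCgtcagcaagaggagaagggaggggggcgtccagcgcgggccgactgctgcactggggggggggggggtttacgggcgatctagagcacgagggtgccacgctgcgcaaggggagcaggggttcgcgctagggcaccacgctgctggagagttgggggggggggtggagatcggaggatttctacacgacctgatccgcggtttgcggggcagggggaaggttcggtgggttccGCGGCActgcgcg
Meg3: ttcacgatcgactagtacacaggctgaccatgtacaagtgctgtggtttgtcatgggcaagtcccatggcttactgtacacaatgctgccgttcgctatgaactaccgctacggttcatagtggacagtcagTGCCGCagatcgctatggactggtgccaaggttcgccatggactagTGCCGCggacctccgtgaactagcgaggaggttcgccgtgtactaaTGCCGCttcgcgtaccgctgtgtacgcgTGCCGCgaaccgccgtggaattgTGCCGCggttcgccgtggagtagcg
Inpp5f: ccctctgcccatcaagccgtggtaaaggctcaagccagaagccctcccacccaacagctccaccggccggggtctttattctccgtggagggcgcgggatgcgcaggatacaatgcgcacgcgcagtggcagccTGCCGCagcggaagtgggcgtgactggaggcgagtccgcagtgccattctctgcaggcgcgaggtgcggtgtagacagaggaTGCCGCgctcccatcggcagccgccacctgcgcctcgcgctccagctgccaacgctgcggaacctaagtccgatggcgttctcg
Cdh15: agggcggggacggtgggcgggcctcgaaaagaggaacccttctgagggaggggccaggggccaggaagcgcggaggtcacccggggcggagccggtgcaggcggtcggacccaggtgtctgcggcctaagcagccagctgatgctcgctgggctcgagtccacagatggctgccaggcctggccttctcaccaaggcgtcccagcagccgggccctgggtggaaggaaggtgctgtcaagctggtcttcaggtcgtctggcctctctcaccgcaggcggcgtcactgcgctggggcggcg
Kcnq1ot1: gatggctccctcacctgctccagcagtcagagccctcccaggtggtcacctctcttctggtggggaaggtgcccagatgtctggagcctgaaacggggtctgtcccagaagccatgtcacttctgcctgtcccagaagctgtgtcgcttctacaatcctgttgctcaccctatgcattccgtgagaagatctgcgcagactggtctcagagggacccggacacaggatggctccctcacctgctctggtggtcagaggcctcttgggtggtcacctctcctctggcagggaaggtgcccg

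The next 3 windows show the other kind of place, repeats with a peak in 1 knockout only. Those in introns of *Scarb2* (chr5:92477201-92477500, 19 CpG) and *Tek* (chr4:94819089-94819388, 21 CpG) had peaks in both *Uhrf1* KO lists alone, and the one on chromosome 7 (chr7:53677443-53677742, 16 CpG) in both *Dhx9* KO lists alone.
Scarb2: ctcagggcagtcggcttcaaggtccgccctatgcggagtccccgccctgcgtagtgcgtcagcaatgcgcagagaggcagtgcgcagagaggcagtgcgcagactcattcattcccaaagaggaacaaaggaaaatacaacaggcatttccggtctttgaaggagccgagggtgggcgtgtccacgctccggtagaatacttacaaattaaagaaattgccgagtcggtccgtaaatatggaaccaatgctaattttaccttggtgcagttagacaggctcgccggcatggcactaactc
Tek: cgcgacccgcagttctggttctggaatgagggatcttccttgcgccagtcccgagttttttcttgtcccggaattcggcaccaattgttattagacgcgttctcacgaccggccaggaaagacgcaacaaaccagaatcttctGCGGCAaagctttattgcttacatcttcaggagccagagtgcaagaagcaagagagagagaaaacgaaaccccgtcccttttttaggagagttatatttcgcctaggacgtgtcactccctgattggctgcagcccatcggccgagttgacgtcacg
Chromosome 7: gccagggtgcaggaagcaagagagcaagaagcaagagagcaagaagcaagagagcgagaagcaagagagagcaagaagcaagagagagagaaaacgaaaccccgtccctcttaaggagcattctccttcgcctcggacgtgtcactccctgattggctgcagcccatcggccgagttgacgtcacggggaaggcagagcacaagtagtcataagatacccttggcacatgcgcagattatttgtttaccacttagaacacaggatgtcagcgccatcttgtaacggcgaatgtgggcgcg

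The motif was counted in such windows as letters only, on both strands. Of the CpG-richest windows of all 101845 places marked in wild type (defined below), 9.49% held TGCCGC, as did 11 of the 18 windows at imprinted loci (61.1%). Those 18 windows were also richer in CpG (mean 26.3, against 9.10). Their places were picked as the strongest of their genes and ranged from 600 bp (*Rasgrf1*) to 56200 bp (*H19*). Longer places offer more windows, and the shares were not matched for CpG or length. In central windows of 300 bases of merged regions the motif was found in 3.99% of regions called in *Uhrf1* KO alone, 2.41% of those called in *Dhx9* KO alone and 2.71% of all, so that regions called in *Dhx9* KO alone held it no more often than regions in general.

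The libraries of the knockouts differed in depth and in their background. *Uhrf1* KO replicates 1 and 2 had 70195 and 93916 peaks with 6703081 and 16966576 ChIP reads in them, and *Dhx9* KO replicates 1 and 2 had 125453 and 120695 peaks with 19761402 and 20491615 reads. ChIP library sizes were implied from the deposited folds and, for *Uhrf1* KO, the median background ratio of 0.598 given below. They were 0.411, 0.759 and 0.995 times that of *Dhx9* KO replicate 1 for *Uhrf1* KO replicates 1 and 2 and *Dhx9* KO replicate 2. Background reads per peak came from different libraries: over 12636 pairs of peaks with identical limits, the *Uhrf1* KO lists held a median of 0.598 times the background reads of the *Dhx9* KO lists. Within a knockout the background counts of identical peaks were equal in 100% of pairs, and between the knockouts in 1.85% to 2.42%. The wild-type lists, used below to pick marked places, shared the background of the *Dhx9* KO lists. Genotype, background library and depth therefore cannot be told apart in the comparisons that follow, and a place without a peak has no read count in the lists, which is not the same as a count of 0. Peaks could not be used to check the knockouts, as neither *Uhrf1* nor *Dhx9* had a peak within 5 kb in any library. At *Vim*, the reporter site, peaks held 62 and 293 reads in *Uhrf1* KO and 215 and 312 in *Dhx9* KO, so it was called in all 4.

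Peaks at imprinted loci that the study had named for reduced H3K9me3 in *Uhrf1* KO differed between the knockouts. For each of 18 imprinted loci named by the study, the strongest wild-type stretch (sequence under a peak in both wild-type lists, at least 600 bp long, in the gene or 5 kb around it) was looked up in the 4 lists. At 16 of 18 loci the stretch had a peak in both *Dhx9* KO libraries and in neither *Uhrf1* KO library, and at 0 of 18 the reverse. Over all genes with such a stretch, 11.2% were of the first kind and 0.806% of the second, and over all 101845 stretches the shares were 9.91% and 0.983%. Among the 4125 stretches with 20 or more CpG in a window, the share with a peak in *Dhx9* KO alone was 5.26%. The study named all 18 loci for reduced H3K9me3 in *Uhrf1* KO against wild type, using the same *Uhrf1* KO libraries. A missing *Uhrf1* KO peak was therefore favoured in advance, and the other places were not picked so. The count of 16 is not independent evidence of its direction.

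Loci known to be methylated on the maternal allele showed the contrast, with *Kcnq1ot1* apart. At *Peg3*, which encodes a zinc finger protein expressed from the paternal allele, the *Dhx9* KO peaks held 416 and 599 ChIP reads, the wild-type peaks 806 and 690, and the *Uhrf1* KO lists had none. *Airn*, the noncoding RNA that silences *Igf2r* in cis, had 706 and 1207 reads in *Dhx9* KO and 1527 and 1381 in wild type. These are totals of peaks that differ in width. Per kb of peak, *Peg3* had 57.8 and 65.1 reads in *Dhx9* KO and 77.5 and 82.1 in wild type. *Airn* had 70.6 and 97.3 per kb against 99.2 and 101.5. *Nespas*, antisense to the *Gnas* cluster, had 834 and 852 reads in *Dhx9* KO. Every one of these places was without a peak in both *Uhrf1* KO libraries. The same held at *Mest* (391 and 597 reads in *Dhx9* KO), *Nnat* (440 and 570), *Impact* (262 and 306), *Plagl1* (186 and 386), *Snrpn* (121 and 197) and *Nap1l5* (104 and 156). *Peg13* had 1089 and 1390 reads and *Inpp5f* 332 and 442.

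At the 3 genes whose imprint is methylated on the paternal allele, the stretch examined also had peaks in *Dhx9* KO alone in the lists as deposited. *H19*, the growth-restraining noncoding RNA whose upstream control region insulates *Igf2*, had 3356 and 2060 reads in *Dhx9* KO and 4283 and 3899 in wild type. *Meg3*, the noncoding RNA of the *Dlk1* cluster, had 609 and 1094 reads in *Dhx9* KO and 2419 and 1319 in wild type. *Rasgrf1*, a guanine nucleotide exchange factor gene, had the fewest, with 53 and 187 reads in *Dhx9* KO and 64 and 67 in wild type, in an intronic stretch of 600 bp that is 79.7% masked. Only the gene and 5 kb around it were searched, and whether this stretch belongs to the methylated control region was not tested. Peaks at a locus differed in width, so their total reads do not give the level. Per kb of peak, not scaled for depth, *H19* had 54.0 and 72.0 reads in *Dhx9* KO and 70.9 and 64.6 in wild type. *Meg3* had 58.6 and 53.6 per kb against 58.1 and 73.3, and *Rasgrf1* 66.25 and 37.4 against 80 and 112. None of the 3 stretches had a peak in either *Uhrf1* KO list. Of the remaining loci, *Cdh15* (1074 and 1665 reads in *Dhx9* KO) and *Zfp787* (493 and 302) were of the same kind.

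**Figure D1:**
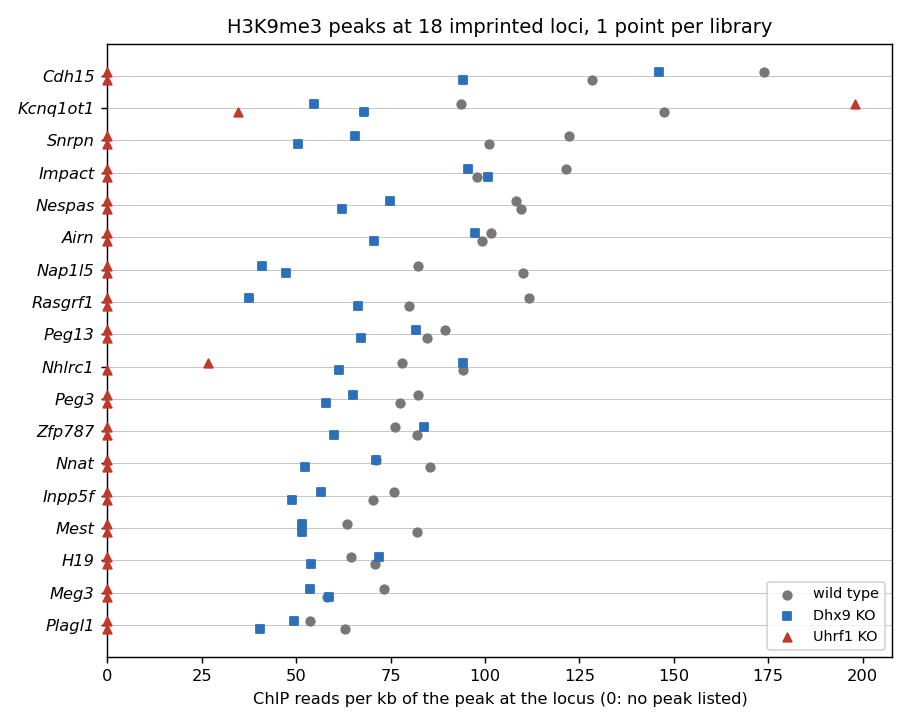
ChIP reads per kb of the peak over the strongest wild-type stretch (x axis) at 18 imprinted loci (y axis), with 1 point per library: wild-type (grey circles), *Dhx9* KO (blue squares) and *Uhrf1* KO (red triangles), where 0 means that no peak was listed. Reads per kb are not scaled for depth. The *Dhx9* KO points lie between 37.4 and 146, and the *Uhrf1* KO points lie at 0 except at *Kcnq1ot1* and, for replicate 2, at *Nhlrc1*.

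*Nhlrc1* and *Kcnq1ot1* were the exceptions. At the stretch near *Nhlrc1*, a ubiquitin ligase gene, *Uhrf1* KO replicate 1 had no peak and replicate 2 had a peak of 214 reads at 26.8 reads per kb, against 61.2 and 94.2 reads per kb in *Dhx9* KO. The strongest stretch of *Kcnq1ot1*, the antisense RNA of the *Kcnq1* domain, was an exonic place of 1200 bp that is 93.8% soft-masked as repeat, and all 4 libraries had a peak there (464 and 198 reads in *Uhrf1* KO, 136 and 416 in *Dhx9* KO). At the *Kcnq1ot1* start site itself, where its control region lies, the *Dhx9* KO peaks held 265 and 670 reads and neither *Uhrf1* KO list had a peak within 1 kb. Over start sites, 14 of the 18 genes had a peak in both *Dhx9* KO libraries alone, where 2.99% of all 35856 genes did. Most genes had no start-site peak in any of the 4 lists. Among genes with one, the counts were 14 of 16 and 1071 of 9736. The 18 were named by the study for reduced H3K9me3 in *Uhrf1* KO, which favours this pattern in advance.

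Peaks in *Uhrf1* KO were not missing from the whole of these genes. At 7 of the 18 loci neither *Uhrf1* KO library had any peak in the gene or 5 kb around it, and at 0 of 18 did the *Dhx9* KO libraries lack one. At 17 of 18 both *Dhx9* KO libraries had more bases under peaks than both *Uhrf1* KO libraries. The exception was *Rasgrf1*, with 19600 and 68200 bp under peaks in *Uhrf1* KO and 73400 and 63600 bp in *Dhx9* KO. Over all genes, peaks covered 5.40% and 12.14% of gene bodies in *Uhrf1* KO and 16.13% and 13.65% in *Dhx9* KO. For the 18 loci these shares were 7.15% and 15.99%, and 33.35% and 29.82%. Loci were not counted in this way over all genes. The 18 were named for reduced H3K9me3 in the same *Uhrf1* KO libraries, which favours these counts and shares in advance. At 16 of 18 loci the log2 fold over background was lower in both *Dhx9* KO than in both wild-type libraries. *Airn*, for example, had log2 folds over background of 1.72 and 2.18 in *Dhx9* KO and 2.38 and 2.42 in wild type. Of the 62996 stretches with a peak in both *Dhx9* KO lists, 38.2% showed that order. The 18 stretches were picked as the strongest of their genes in the same wild-type libraries, which favours this order in advance. The 62996 were not picked so, and a lower level in *Dhx9* KO cannot be read from the 16.

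A second list of imprinted genes, outside those named by the study, held fewer such places. Of 16 such genes with a wild-type stretch, 6 (37.5%) had a peak in both *Dhx9* KO libraries alone and 0 in *Uhrf1* KO alone. Over all genes with a stretch the shares were 11.2% and 0.806%. *Grb10*, an adaptor that restrains insulin and growth factor signalling, had 165 and 194 reads in *Dhx9* KO, and *Zdbf2* had 152 and 195. *Magel2* had 218 and 135 and *Smoc1*, a matricellular protein gene, 78 and 98. *Igf2r* and *Gnas* shared the stretches of *Airn* and *Nespas* and add nothing of their own. *Peg10*, *Slc38a4*, *Dlk1*, *Igf2* and *Zim1* were called in all 4 (31.25% of the 16, against 34.8% of all genes with a stretch). When peaks had to reach a log2 fold of 1, or when all lists were limited to equal length by fold, only *Igf2r* and *Gnas*, with their shared stretches, were still called in *Dhx9* KO alone. With equal lists by reads per kb *Magel2* joined them.

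In the first list 12 of 18 loci had the pattern at a log2 fold of 1, without *Inpp5f*, *Nap1l5*, *Nnat*, *Rasgrf1* and *Snrpn* and with *Nhlrc1* added. With equal lists by fold 16 had it, without *Rasgrf1* and with *Nhlrc1*, and by reads per kb 14, without *Nap1l5*, *Plagl1* and *Rasgrf1* and with *Nhlrc1*. When any peak within 5 kb of the centre kept a locus, 14 had the pattern, without *Meg3* and *Rasgrf1*.

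Over the genome, the 4 lists merged into 153966 regions. Of these, 2683 (1.74%) were called in both *Uhrf1* KO libraries and in neither *Dhx9* KO library, 16199 (10.5%) in both *Dhx9* KO libraries and in neither *Uhrf1* KO library, and 39306 (25.5%) in all 4. The remaining 95778 had a peak in 1 library of a knockout or another mixture. The regions called in *Uhrf1* KO alone covered 6.95 Mb and those called in *Dhx9* KO alone 58.6 Mb. Replicates of a knockout overlapped only in part, as 81.7% and 59.2% of the peaks of *Uhrf1* KO replicates 1 and 2, and 71.4% and 72.9% of those of *Dhx9* KO replicates 1 and 2, overlapped a peak of their partner. Across the knockouts, *Uhrf1* KO replicate 1 overlapped *Dhx9* KO replicates 1 and 2 in 70.8% and 82.3% of its peaks and *Uhrf1* KO replicate 2 in 75.8% and 82.6%. The *Dhx9* KO lists, which are longer, overlapped *Uhrf1* KO replicates 1 and 2 in 40.5% and 60.5% of peaks for replicate 1 and 46.3% and 66.1% for replicate 2, below their overlap with each other.

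Which knockout had more regions of its own depended on how peaks were selected. For *Uhrf1* KO alone and *Dhx9* KO alone, the counts were 2751 and 7004 at an FDR of 1e-10. They were 1892 and 12288 where peaks covered at least 50% of the region, and 2112 and 13258 with peaks within 1 kb merged. With peaks of a log2 fold of at least 1, the counts were 6665 in *Uhrf1* KO alone and 5587 in *Dhx9* KO alone. With each list limited to the 70195 peaks of the shortest, they were 7265 and 6465 by log2 fold and 6733 and 5784 by ChIP reads per kb, so the order of the counts turned. Leaving out a library, which lets 1 library stand for its knockout, gave 10048 and 18153 without *Uhrf1* KO replicate 1, 9754 and 35486 without *Uhrf1* KO replicate 2, 3987 and 35923 without *Dhx9* KO replicate 1, and 9008 and 46268 without *Dhx9* KO replicate 2.

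**Figure D2:**
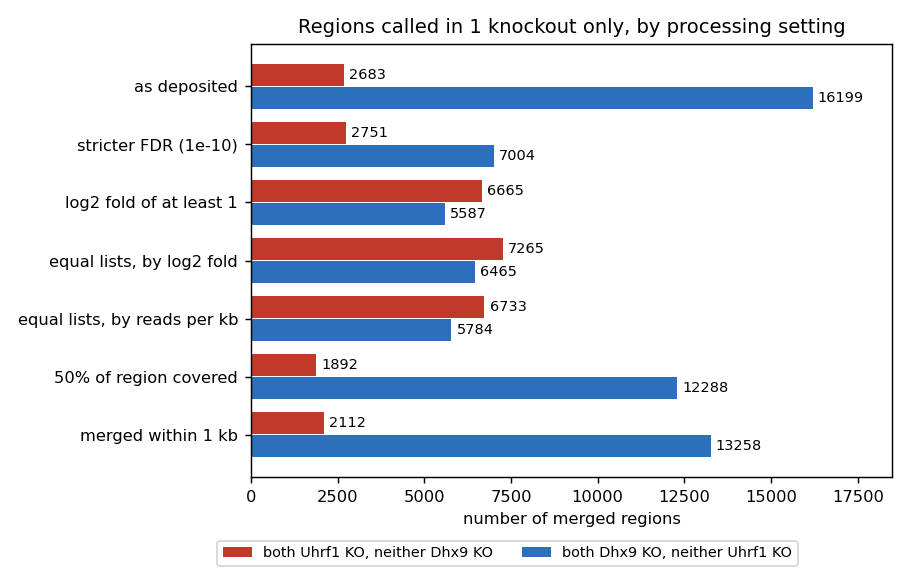
Number of merged regions (x axis) called in both libraries of 1 knockout and in neither of the other, for *Uhrf1* KO (red) and *Dhx9* KO (blue), with the lists as deposited and under 6 other settings (y axis). The blue bar is longer as deposited (16199 against 2683), and the red bar is longer with a log2 fold of at least 1 and with lists of equal length.

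Mean GC content and masked share differed between the classes in the same direction at the stricter FDR, at a log2 fold of 1 and with both kinds of equal lists. Regions called in *Uhrf1* KO alone had a mean GC content of 44.1% and were 48.7% soft-masked as repeats, whereas those called in *Dhx9* KO alone had 46.9% GC and were 27.9% masked. As deposited, regions called in all 4 lay between them at 44.7% and 43.7%. At a log2 fold of 1 they lay outside the range of these classes, at 44.0% and 55.1%. There *Uhrf1* KO alone was less masked (40.7%) than all regions (42.9%), as with equal lists by fold (37.8% and 40.6%). It was more masked than all regions at the stricter FDR (50.3% and 42.7%) and with equal lists by reads per kb (43.1% and 40.0%). With the latter, *Uhrf1* KO alone and *Dhx9* KO alone had GC contents of 44.4% and 48.5% and masked shares of 43.1% and 28.8%. Regions called in *Uhrf1* KO alone lay between genes in 66.5% of cases, in introns in 29.4% and at promoters in 2.42%, and those called in *Dhx9* KO alone in 49.6%, 41.7% and 4.13%. Their median lengths were 2400 bp and 3200 bp as deposited, an order that turned at a log2 fold of 1 (3000 and 2400 bp) and with equal lists by fold (3000 and 2600 bp) and by reads per kb (2800 and 2200 bp).

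Split into 5 bins of equal size by GC content, the share of regions called in *Dhx9* KO alone rose from 3.71% in the lowest bin to 14.6% in the highest, and the share called in *Uhrf1* KO alone went from 2.89% to 0.929%. By masked share, *Dhx9* KO alone went from 14.7% in the least masked bin to 4.66% in the most masked, and *Uhrf1* KO alone from 0.961% to 2.80%. By CpG density, *Dhx9* KO alone went from 11.7% to 7.58%, while *Uhrf1* KO alone was higher at both ends (2.25% and 2.73%) than in the middle bin (1.13%). The background moved with GC too. Over the 12636 pairs of peaks with identical limits, the median of the centred log2 ratio of background reads, *Uhrf1* KO over *Dhx9* KO lists, was -0.09 in the lowest GC bin and 0.11 in the highest, and that of ChIP reads was 0.05 and -0.03. Over bins by masked share the ratio of ChIP reads went from -0.18 to 0.11 and that of background reads from 0.03 to 0.08. The part of the background in the contrast of sequence was not tested.

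**Figure D3:**
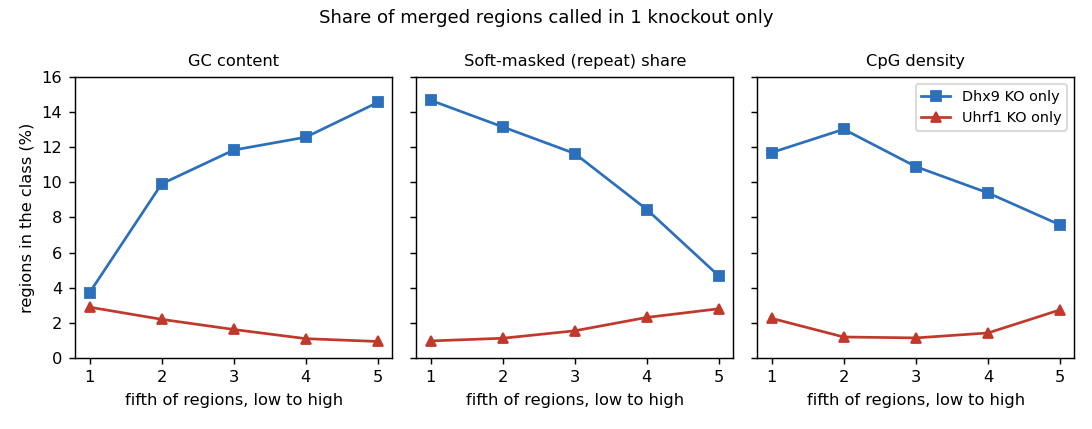
Share of merged regions (y axis, %) called in *Dhx9* KO alone (blue squares) or *Uhrf1* KO alone (red triangles) in each of 5 equal bins of all regions by GC content, by soft-masked share and by CpG density (x axes, low to high). The blue line runs from 3.71% to 14.6% with GC and from 14.7% to 4.66% with masked share, while the red line runs the opposite way in both.

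The classes also differed in what wild-type cells carried there. Of the regions called in *Dhx9* KO alone, 8673 (53.5%) had a peak in both wild-type lists and 3628 (22.4%) in neither. Of those called in *Uhrf1* KO alone, 662 (24.7%) had a peak in both and 1312 (48.9%) in neither. The shares with a peak in both wild-type lists were 59.3% for *Uhrf1* KO alone and 61.8% for *Dhx9* KO alone with a log2 fold of at least 1, and 59.6% and 58.2% with equal lists by fold, so the contrast was small or turned there. With equal lists by reads per kb they were 52.1% and 68.4%, and at an FDR of 1e-10 47.0% and 78.7%.

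Chromosomes X and Y carried more of the regions called in *Uhrf1* KO alone. On X, 218 of 3501 merged regions (6.23%) were called in *Uhrf1* KO alone and 46 (1.31%) in *Dhx9* KO alone, and on Y 84 of 480 (17.5%) and 2 (0.417%). With equal lists by reads per kb, X held 5.66% of the regions called in *Uhrf1* KO alone, 0.467% of those called in *Dhx9* KO alone and 2.65% of all regions. At a log2 fold of 1 these shares were 3.42%, 0.770% and 3.25%, and with equal lists by fold 3.14%, 0.712% and 2.85%, so that *Uhrf1* KO alone was then close to all regions and *Dhx9* KO alone below them. Among autosomes, chromosome 4 had the lowest share called in *Uhrf1* KO alone (0.581%) and chromosome 8 the lowest called in *Dhx9* KO alone (4.63%). These were chromosomes on which replicates of *Dhx9* KO parted: over regions covered in all 4 libraries, the median log2 deviation of chromosome 4 from the mean of the 4 libraries was 0.24 in *Dhx9* KO replicate 1 and -0.11 in replicate 2, and that of chromosome 8 was -0.06 and 0.18. The *Uhrf1* KO libraries lay between -0.09 and -0.04 on both. Without chromosomes 4, 8, X and Y the genome-wide counts were 2134 and 14344.

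**Figure D4:**
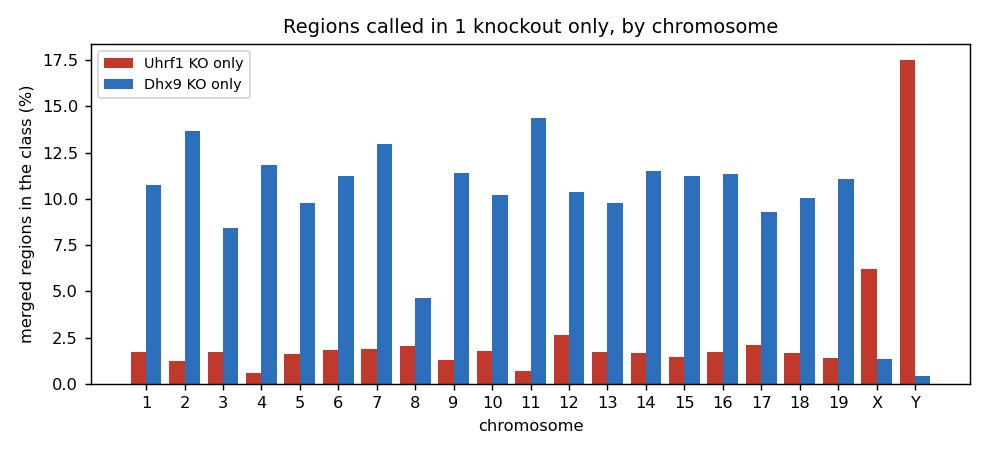
Share of the merged regions of each chromosome (y axis, %) called in *Uhrf1* KO alone (red bars) or *Dhx9* KO alone (blue bars). Red exceeds blue on X (6.23% against 1.31%) and Y (17.5% against 0.417%), and the blue bar of chromosome 8 is the shortest of the autosomes at 4.63%.

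The regions of at least 2 kb with the highest fold in each direction were repeats for the most part. The leading region called in *Uhrf1* KO alone, in the *Scarb2* intron shown above (chr5:92477201-92479400), is 100% soft-masked and held 75 and 68 ChIP reads over 1 background read in each list. The *Tek* intron (chr4:94815601-94819400), also 100% masked, held 60 and 167 reads over 6 and 10. Both also had peaks in both wild-type lists. The 3 others lay between genes on Y (chrY:43224801-43228200, 60 and 96 reads, and chrY:90100001-90105200, 56 and 163) and X (chrX:156585001-156587400, 65 and 84), at least 96.8% masked. Among those called in *Dhx9* KO alone, an exonic region of *AU022751* and *Gm26618* (chrX:6080801-6083800) was only 5.13% masked, with 113 and 132 reads. An intronic region of *Klhl32* (chr4:24810601-24812800), a kelch family gene, was 29.1% masked, with 94 and 77 reads. The other 3 were at least 75.4% masked (chr7:53676201-53678800, 71 and 75 reads; chrX:153879601-153881800, 72 and 78; chrX:26578201-26580400, 62 and 68). With equal lists by reads per kb, the *Scarb2* region and the last 4 of these, *Klhl32* included, were no longer called in 1 knockout only, and neither were the *Tek* region and chrY:43224801-43228200 when peaks within 1 kb were merged.

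Some of these repeats were near copies of each other. Of the 25-base runs of the *Scarb2* region 70.5% were also found in the *Tek* region. Of those of chrX:156585001-156587400, called in *Uhrf1* KO alone, 37.4% were found in chr7:53676201-53678800, called in *Dhx9* KO alone. Reads of such copies can be assigned to either, so these calls are uncertain as to place.

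At gene starts, 65 of 35856 genes (0.181%) had a peak over the start site in both *Uhrf1* KO libraries and none within 1 kb in *Dhx9* KO, 1071 (2.99%) the reverse, and 1433 a peak in all 4. Protein-coding genes made up 27 of the 65 and 615 of the 1071. With a log2 fold of at least 1 the counts were 212 and 301, and with equal lists by fold 293 and 374. They ranged from 119 to 495 and from 1131 to 3148 when each library was left out in turn, highest without *Uhrf1* KO replicate 1 and without *Dhx9* KO replicate 2, respectively. Wild-type cells had a peak in both lists at 670 of the 1071 starts (62.6%) and 25 of the 65.

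The 10 coding genes with start-site peaks in *Dhx9* KO alone and the most reads per kb in the weaker peak were led by *Fcgr3*, an Fc receptor gene, with 175 and 103 reads, followed by *Impact*. *Gm3115* had 475 and 674 reads, *Bpifa3* 34 and 42, *Eml2*, a microtubule-binding protein gene, 197 and 302, and *Zfp629*, a zinc finger gene, 1178 and 1632. *Prr19* (62 and 43), *6330416G13Rik* (2341 and 1984), *2310034C09Rik* (64 and 42) and the olfactory receptor gene *Olfr605* (54 and 54) completed them. Of those with start-site peaks in *Uhrf1* KO alone, *Ppm1b*, a protein phosphatase gene, had 643 and 566 reads, and the predicted genes *Gm13212* and *Gm13154* 613 and 523, and 482 and 182. *Cyp3a44*, a cytochrome P450 gene, had 733 and 58 reads, a wide difference between replicates. *Sox30*, a transcription factor gene of spermatogenesis, had 33 and 94, *Slc25a12*, a mitochondrial carrier gene, 31 and 53, and *Cetn1*, a testis centrin gene, 32 and 68. *Ccdc158* (24 and 47), *Olfr414* (30 and 73) and *LOC108167694* (118 and 465) completed the 10. The smaller of these counts are near the lowest of any listed peak, which was 14 in *Uhrf1* KO replicate 1 and 25 in the other 3 lists. At a log2 fold of 1, *Ppm1b*, *Sox30* and *Cetn1* were still called in *Uhrf1* KO alone and the other 7 were not. Of those called in *Dhx9* KO alone, *Fcgr3*, *Gm3115* and *Olfr605* were lost there.

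Gene families known to carry H3K9me3 were called in *Dhx9* KO alone at shares of 5.15% to 12.3%, around the 11.2% of all genes. Of 247 zinc finger genes with a wild-type stretch, the strongest stretch had a peak in all 4 at 106, in *Dhx9* KO alone at 23 and in *Uhrf1* KO alone at 7 (2.83%, against 0.806% of all genes), some of them neighbours that share a stretch. The last included *Zfp146* (61 and 248 reads), *Zfp930* (74 and 90), *Zfp263* (44 and 79) and a stretch of *Zfp229* and *Zfp760* (32 and 79). Stretches of *Zfp13* (413 and 134) and *Zfp775* (280 and 409) had peaks in *Dhx9* KO alone. Olfactory receptor genes gave 48 of 389 in *Dhx9* KO alone and 1 in *Uhrf1* KO alone, vomeronasal receptor genes 7 and 2 of 136, keratin and keratin-associated genes 8 and 0 of 78, clustered protocadherin genes 5 and 0 of 52. Of these families, only the zinc finger genes gave more than 2 places in *Uhrf1* KO alone.

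Germline genes, many of them silenced by promoter DNA methylation, differed at few members. Of 24, 13 had a start-site peak in all 4 libraries, where 4.00% of all genes did, *Asz1* (34 and 51 reads), a gene of the piRNA pathway, had one in *Uhrf1* KO alone and 0 had one in *Dhx9* KO alone. The strongest stretch of *Stra8*, a regulator of entry into meiosis, had a peak in *Dhx9* KO alone (457 and 196 reads). Of 16 genes of the 2-cell stage with a stretch, 10 were called in all 4 (34.8% of all genes with a stretch were) and the near-identical *Usp17lb* and *Usp17ld*, whose reads cannot be told apart, in *Dhx9* KO alone. Among 24 genes of DNA and H3K9 methylation, *Dnmt3a* (257 and 206 reads) and *Dnmt3l* (147 and 125), a de novo methyltransferase and its cofactor, had start-site peaks in *Dhx9* KO alone (2.99% of all genes did), while by strongest stretch 0 of 6 were of that kind and 4 were called in all 4. Of 16 lineage genes, *Gata4* (145 and 148), a transcription factor of endoderm, had one there too. Stretches of *Tfcp2l1* (445 and 106), a pluripotency factor, *T* (85 and 98), the mesoderm regulator, and *Hoxb1* (302 and 142) were called in *Dhx9* KO alone. Of genes with a stretch, 1 of 4 pluripotency, 1 of 7 lineage and 2 of 9 Hox genes were of that kind. With 11.2% of all genes of that kind, counts this small show no difference of these lists. None of the 39 Hox genes and 2 of 67 clustered histone genes had a start-site peak in all 4, shares near that of all genes.

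Where all 4 libraries were covered, ChIP counts could be tested. Of the regions called in all 4, 2018 (5.13%) were covered by peaks of each library over at least 80% of their length, and their counts, corrected for the length covered, were compared with edgeR. In this test 30 regions (1.49%) had lower counts in *Uhrf1* KO and 3 (0.149%) higher, at a Benjamini-Hochberg adjusted p under 0.05. At an unadjusted p under 0.05 there were 217 and 130. The median log2 change of all 2018 was -0.02, so changes are relative to these regions. The 30 lower regions had a median log2 change of -0.997 (-1.66 to -0.63), and 14 of them differed by more than 2-fold. They had a mean GC content of 51.2% (46.2% for all tested), and 0 of them lay at a promoter, where 2.08% of all tested regions did. Relative to all tested regions, the median log2 ratio of background reads, *Uhrf1* KO over *Dhx9* KO, was -0.22 in these 30. In the 3 higher regions it was 0.29.

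Of the 5 lower regions with the largest change, the one with the lowest p lay between genes on chromosome 6 (chr6:5704801-5706600). Its counts were 112 and 310 in *Uhrf1* KO and 552 and 514 in *Dhx9* KO, or 122 and 130 against 372 and 244 normalised reads per kb. Both *Uhrf1* KO libraries were below both *Dhx9* KO libraries (log2 change -1.28 ± 0.19 SE, edgeR quasi-likelihood test with Benjamini-Hochberg adjustment, adjusted p = 0.000259). In an intron of *Acap2*, a GTPase-activating protein gene (chr16:31162401-31163600), normalised reads per kb were 62.3 and 85.0 in *Uhrf1* KO and 264.5 and 159.9 in *Dhx9* KO (log2 change -1.49 ± 0.27, edgeR adjusted p = 0.0049). In an intron of *Cd36*, a fatty acid receptor gene (chr5:17786001-17787200), they were 78.3 and 92.2 against 323 and 133 (log2 change -1.39 ± 0.30, edgeR adjusted p = 0.0117). In both introns *Dhx9* KO replicate 1 stood well above replicate 2, and the groups did not overlap. The largest change, -1.66 ± 0.31 (edgeR adjusted p = 0.0049), was at a fully masked place of 400 bp on X (chrX:170758201-170758600) with 5019 and 7889 reads in *Uhrf1* KO and 13615 and 36808 in *Dhx9* KO. A place on chromosome 4 (chr4:25511601-25514600) had 39 and 104 reads in *Uhrf1* KO and 279 and 138 in *Dhx9* KO (log2 change -1.33 ± 0.31, edgeR adjusted p = 0.0182). The lowest p of all belonged to a smaller change, named after its values were seen: a 98.4% masked place between genes on chromosome 7 (chr7:123020201-123023800) had 116 and 141 normalised reads per kb in *Uhrf1* KO and 289 and 243 in *Dhx9* KO (log2 change -1.04 ± 0.15, edgeR adjusted p = 0.000224). Background reads at *Cd36* were 25 and 26 in *Uhrf1* KO and 84 and 84 in *Dhx9* KO. They were 1242 and 1242 against 4052 and 4052 at the place on X, and 63 and 66 against 190 and 182 on chromosome 7. On chromosome 6 they were 37 and 38 against 77 and 83, and on chromosome 4 25 and 29 against 54 and 51. At *Acap2* they were 38 and 37 against 40 and 40. The part of the background in these changes was not tested.

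The 3 higher regions changed less. In an intron shared by *Slc38a1*, a glutamine transporter gene, and *Gm32457* (chr15:96576401-96591400), normalised reads per kb were 92.7 and 92.7 in *Uhrf1* KO and 55.4 and 61.0 in *Dhx9* KO (log2 change 0.67 ± 0.14, edgeR adjusted p = 0.0117). An exonic place of *LOC108168644* on Y (chrY:90825201-90830000) had 335 and 365 against 258 and 212 (0.58 ± 0.15, edgeR adjusted p = 0.0362). A place between genes on chromosome 14 (chr14:31856601-31868600) had 104 and 87.0 against 59.4 and 69.5 (0.56 ± 0.15, edgeR adjusted p = 0.0393). In all 3 both *Uhrf1* KO libraries were above both *Dhx9* KO libraries.

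**Figure D5:**
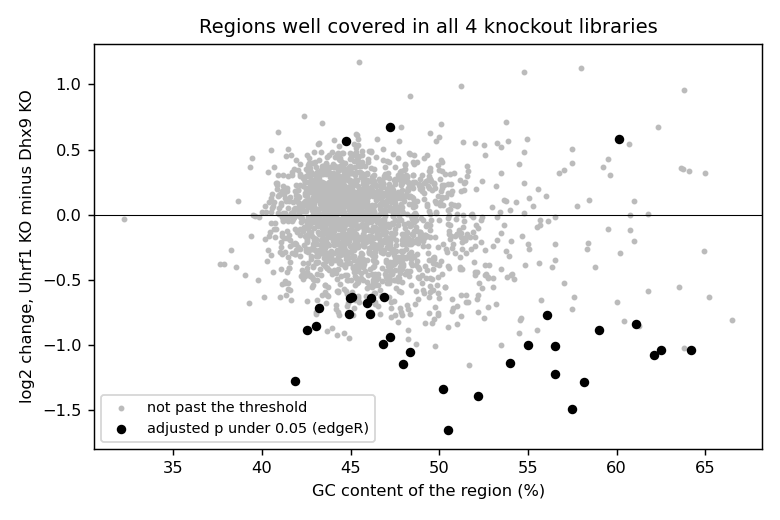
Log2 change of normalised ChIP counts, *Uhrf1* KO minus *Dhx9* KO (y axis), against GC content in % (x axis) for 2018 regions covered in all 4 libraries, with regions past the edgeR threshold in black. The black points are 30 below 0, down to -1.66, and 3 above.

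These calls depended on the scaling. With the ChIP library sizes implied by the deposited folds and the median background ratio, 94 regions were higher and 1 lower. These sizes shift the median log2 change to 0.57. With offsets corrected for GC content 21 were higher and 41 lower. The edgeR test called no region without *Uhrf1* KO replicate 1 or without *Dhx9* KO replicate 1, where 115 and 70 regions were higher and 176 and 80 lower at an unadjusted p under 0.05. Without *Dhx9* KO replicate 2 it called 0 and 7, and without *Uhrf1* KO replicate 2 it called 8 and 24. Each of the 33 regions kept its direction in every alternative in which it was tested, which was favoured in advance because the alternatives refit the same counts. The number past the threshold again ranged from 0 with equal library sizes or a replicate block to 30 with no length offset. It was 18 with DESeq2, 14 with limma on ChIP over background reads and 4 with the implied library sizes. Of the 8 regions named by size of change, limma called 2. The filter on low counts removed 0 regions, so leaving it out repeated the same test.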

How the data were processed

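Labels gave each genotype and replicate number. The 4 knockout and 2 wild-type libraries with a peak list were analysed. The authors aligned reads with Bowtie2 2.3.4.3 to mm10 and called peaks per library with epic2 (the processing notes name SICER 0.0.51). Each deposited list holds, for every peak, unnormalised counts of reads in the ChIP and in the background, the caller's p-value with its false discovery rate (FDR), a log2 fold between them scaled by library size, and a score that the authors' caller derived from that fold (not used here). The methods name wild-type input as background and subsampling to 1 size. The counts in the lists differ from both, as the report states.

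Overlapping peaks of the 4 lists were merged (Python 3.11.15, pandas 2.3.3, numpy 2.4.6, scipy 1.17.1, matplotlib 3.10.9) and placed on the deposited annotation, whose coordinates beyond the reporter insert on chromosome 2 were moved back by 2762 bp. Promoters are within 1 kb of a start site. Regions with at least 80% of their length under peaks of each library were tested with edgeR 4.0.16 in R 4.3.3 (quasi-likelihood test, TMM factors, offset for covered length, no covariate, FDR 0.05). DESeq2 1.42.0 and limma 3.58.1 served as alternatives. The code was tested on simulated counts. Counting error is small beside replicate spread: counts of replicates differed with a chi-square per degree of freedom of 19.7 (*Uhrf1* KO) and 15.2 (*Dhx9* KO), so no library was a duplicate.

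Named are the imprinted loci, listed genes that differed (up to 4 a list by reads), the 5 one-knockout regions of at least 2 kb with 50 ChIP reads in each library and the highest lower fold, the 5 largest tested changes and 10 coding genes by start-site reads, each per direction. The regions, lists and comparisons were chosen with earlier results of these data known. The other 12 samples were not analysed here.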

Additional observations from a re-analysis of the deposited data

How the results depend on the processing

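Depth and background differ between the knockouts, and with 2 libraries each no choice of list length removes that. Regions of *Uhrf1* KO alone and *Dhx9* KO alone numbered 6665 and 5587 where peaks reached a log2 fold of 1. With equal lists they numbered 7265 and 6465 by fold and 6733 and 5784 by reads per kb. At an FDR of 1e-10 they numbered 2751 and 7004. Without each library in turn they ranged from 3987 to 10048 and from 18153 to 46268. The counts without chromosomes 4, 8, X and Y, and the imprinted counts with equal lists, were chosen after seeing the data. The second imprinted list gave 2 with that fold, 2 with equal lists by fold and 3 by reads per kb. Start-site counts were 212 and 301 with that fold, 293 and 374 with equal lists by fold, 677 for *Dhx9* KO at the stricter FDR, and 119 to 495 and 1131 to 3148 without each library.

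Tested regions higher and lower in *Uhrf1* KO numbered 0 and 0 with equal library sizes (0 and 1 at an unadjusted p under 0.05), 94 and 1 with recovered library sizes, 11 and 50 with no length offset, 51 and 13 with all regions called in all 4, 0 and 0 with all 6 libraries in one edgeR fit (72 and 108 unadjusted), 21 and 41 with GC-corrected offsets and 75 and 178 with limma on ChIP over background. DESeq2 gave 3 and 19. Without each library they ranged from 0 to 8 and from 0 to 24. Same-numbered libraries did not deviate together (correlation -0.000921), and with 2 pairs they share only a number: with a replicate block edgeR called 0 and 0 (102 and 183 unadjusted), and with block and GC-corrected offsets 24 and 50. The cause of these changes was not tested.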
